A study of Mus musculus with 8 samples.

Results

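Interferon receptors and the kinases and transcription factors behind them are described here through 9 genes: the receptor chains Ifnar1, Ifnar2, Ifngr1 and Ifngr2, the receptor-bound kinases Jak1, Jak2 and Tyk2, and the transcription factor genes Stat2 and Irf9. They were picked by symbol, all 9 were found among the 41388 gene identifiers of the count files, and all 9 were among the 12002 genes with enough counts for a test. The RNA came from microglia, the macrophages that live in brain and spinal cord, sorted by CD11c, CD11b and CD45 from C57BL/6 adult mice. The first group holds CD11c+ microglia from mice with NMO (neuromyelitis optica, in which optic nerve and spinal cord are inflamed; n = 2), the next holds CD11c- microglia from NMO mice (n = 3), and the last holds control microglia (n = 3). No transgene, mutant allele or drug is named in the labels, nor how NMO was brought about. The control cells carry the label CD11c negative, but their titles speak of total microglia from unmanipulated animals, so whether CD11c+ cells had been taken out of them is not known.

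Type I interferons bind a receptor made of IFNAR1 and IFNAR2, and interferon gamma binds one made of IFNGR1 and IFNGR2. IFNAR1 carries the kinase TYK2, IFNAR2 and IFNGR1 carry JAK1, and IFNGR2 carries JAK2. Once type I interferon has bound, the kinases phosphorylate STAT proteins, and a complex that contains STAT2 and IRF9, named ISGF3, enters the nucleus and binds a DNA element named ISRE. Interferon gamma acts mainly through a STAT dimer that binds another element, GAS. The genes of STAT2 and IRF9 are themselves known to be induced by interferon.

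Total counts were 4943207 to 5914412 in NMO CD11c+ libraries, 6437516 to 6819662 in NMO CD11c- libraries and 7500815 to 9246061 in control libraries. Levels below are CPM, counts scaled to a common library size with TMM factors, and each member had 342 to 6668 counts in a library, which alone gives a relative counting error (SD) of 5.41% to 1.22%. Itgax, which encodes CD11c, was at 188 and 181 CPM in NMO CD11c+ libraries, 35.5, 41.25 and 40.0 CPM in NMO CD11c- libraries and 30.6, 32.1 and 31.0 CPM in control libraries. The summed level of 11 microglial markers was 33480 to 35120 CPM, 34610 to 42530 CPM and 41620 to 45530 CPM in these groups. Neutrophil markers (10) summed to 15.3 to 19.7 CPM in NMO CD11c+ libraries, 2067 to 10680 CPM in NMO CD11c- libraries and 864 to 1774 CPM in control libraries, and 10 immediate-early genes to 9083 to 36500 CPM, 7286 to 18800 CPM and 21810 to 45950 CPM. NMO CD11c+ replicate 1 stands apart, with a rank correlation over genes of 0.592 between its deviation and gene GC content, against -0.299 to -0.0378 in the other libraries. The titles number NMO libraries 7 to 12 and control libraries 21 to 23, so disease and any difference in handling cannot be told apart. Nothing states that every library is from another mouse, so p-values measure the spread between these samples, which may be technical.

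Stat2 rose in both NMO subsets, to 1.89 times the control level in CD11c+ and 1.95 times in CD11c- microglia. Irf9, its partner in ISGF3, rose to 1.32 times the control level in CD11c- microglia, and the interferon gamma receptor chain Ifngr2 to 1.44 times in CD11c+ microglia. Irf9 in CD11c+ (1.18 times) and Ifngr2 in CD11c- microglia (1.26 times) also lay above control but did not pass. Neither gene was called between the subsets. The Irf9 call was lost in every fit that left out an NMO CD11c- or control library, and the Ifngr2 call in some fits. The other 6 members did not pass the test in any comparison. The test was edgeR's quasi-likelihood test on all genes, and a gene was called when its p, adjusted by Benjamini-Hochberg, was under 0.05. In the CD11c+ subset against control, 2 of 9 members were called higher and 0 lower, where 6.85% of all genes tested were called higher and 3.36% lower. In the CD11c- subset against control, 2 of 9 were called higher and 0 lower, where 3.0% of all genes were called higher and 0.717% lower. Between the NMO subsets 0 members were called higher and 0 lower, where 0.1% and 0.183% of all genes were. DESeq2 also called 0 members between the subsets and 0 lower against control.

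At an unadjusted p under 0.05, 4 members were higher and 0 lower in CD11c+ microglia against control (15.6% and 13.2% of all genes), 3 higher and 0 lower in CD11c- microglia against control (11.7% and 7.02%), and 0 either way between the subsets (7.90% and 7.54%). The members' median log2 fold change was 0.24 in the CD11c+ and 0.11 in the CD11c- subset against control, and 0.01 between the subsets, while all genes tested had medians of 0.01, -0.004 and 0.01. Both NMO subsets are set against the same control libraries. The background counts depend on single libraries: in CD11c- microglia against control all libraries gave 360 higher and 86 lower, but edgeR called 123 higher and 18 lower without control replicate 1 and 788 higher and 405 lower without NMO CD11c+ replicate 1. Between the subsets it called 1435 higher and 1581 lower without NMO CD11c+ replicate 2. A correction for GC content and length changed the counts over all genes to 567 higher and 305 lower in the CD11c- subset (uncorrected 360 and 86), and to 52 and 57 between the subsets (uncorrected 12 and 22, and 8 and 24 with no scaling beyond library size).

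**Figure D1:**
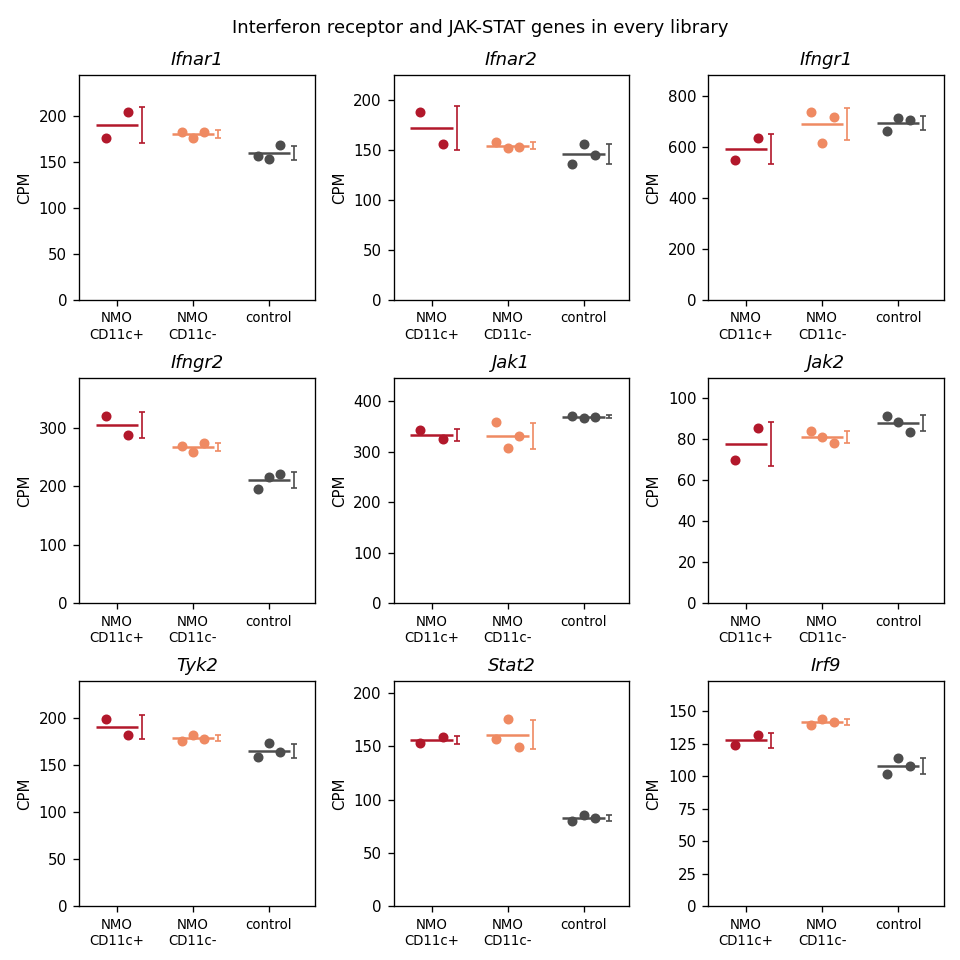
CPM of each member (vertical axes, each from 0) in every library; points are libraries, the line is the group mean and the bar beside it 1 SD (n = 2 NMO CD11c+, n = 3 NMO CD11c-, n = 3 control). For Stat2 the NMO libraries lie at 149.7 CPM or more and the control libraries at 85.3 CPM or less.

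Stat2 (ENSMUSG00000040033, chromosome 10 from 128270559 to 128292849, plus strand, GRCm38) encodes the STAT protein specific to ISGF3. It was at 154 and 159 CPM in NMO CD11c+ libraries, 157, 176 and 149.7 CPM in NMO CD11c- libraries and 79.6, 85.3 and 82.65 CPM in control libraries. Every NMO library was above every control library, and the NMO subsets overlapped. In CD11c+ microglia the log2 fold change against control was 0.92 (SE 0.104, 95% interval 0.69 to 1.15, adjusted p = 0.000694). In CD11c- microglia it was 0.96 (SE 0.0942, 95% interval 0.75 to 1.17, adjusted p = 0.0005). Both calls held under all 16 alternatives, with an adjusted p of at most 0.00632 and 0.00774. Between the subsets the log2 fold change was -0.045 (95% interval -0.28 to 0.19, adjusted p = 0.846). Neutrophil markers summed to 15.3 and 19.7 CPM in NMO CD11c+ libraries 1 and 2, and to 3068, 10680 and 2067 CPM in NMO CD11c- libraries 1, 2 and 3, where replicate 2 had both the highest sum and the highest Stat2 level. Without NMO CD11c- replicate 2 the log2 fold change of Stat2 in CD11c- microglia against control was 0.90 (edgeR adjusted p = 0.00241). In bulk samples fewer cells of a type and less RNA per cell cannot be told apart.

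Irf9 (ENSMUSG00000002325, chromosome 14 from 55603571 to 55610030, plus strand) encodes the DNA-binding subunit of ISGF3. It was at 124 and 131 CPM in NMO CD11c+ libraries, 139, 144 and 142 CPM in NMO CD11c- libraries and 101, 114 and 108 CPM in control libraries. The groups do not overlap, and NMO CD11c- libraries were highest and control libraries lowest. In CD11c- microglia the log2 fold change against control was 0.40 (SE 0.0873, 95% interval 0.20 to 0.59, adjusted p = 0.0358). The call was lost without NMO CD11c- replicate 1, 2 or 3 (adjusted p = 0.0923, 0.117 and 0.0982) and without control replicate 1, 2 or 3 (0.195, 0.0955 and 0.128). In CD11c+ microglia the log2 fold change was 0.24 (95% interval 0.03 to 0.46, adjusted p = 0.133), which did not pass. Between the subsets it was -0.15 (95% interval -0.37 to 0.07, adjusted p = 0.446), which did not pass either. Irf9 shares 123 exon bases with its same-strand neighbour Rnf31, which was at 67.2 to 124 CPM, and how reads in shared bases were counted is not stated in the labels.

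Counts of Stat2 exceeded those of Irf9 in all 5 NMO libraries and in 0 of 3 control libraries. The Stat2 to Irf9 ratio within a library was 1.24 and 1.21 in NMO CD11c+, 1.13, 1.22 and 1.06 in NMO CD11c- and 0.785, 0.749 and 0.767 in control libraries. Counts of Stat2 and Irf9 together, over those of the 3 kinases together, gave 0.453 and 0.490 in NMO CD11c+, 0.480, 0.5615 and 0.498 in NMO CD11c- and 0.291, 0.3165 and 0.3085 in control libraries. NMO and control libraries do not overlap in either ratio. For the second ratio the log2 difference from control was 0.63 in CD11c+ (exact two-sided permutation p = 0.2) and 0.75 in CD11c- microglia (exact p = 0.1), each 0.36 when adjusted over 9 ratio comparisons. With no overlap, each p is the smallest that its group sizes allow, 0.2 for CD11c+ and 0.1 for CD11c- microglia against control.

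The promoters of the 3 called genes are printed because ISRE and GAS are the elements at which the chain ends. Each window runs from 250 bases before to 50 after a RefSeq start (GRCm38.p6, 5′ to 3′ on the plus strand). Capitals mark GAAANNGAAA (the ISRE core) or TTCNNNGAA (GAS) on either strand. The windows are chr10:128270248-128270547 for Stat2, chr14:55603735-55604034 for the first of the Irf9 starts and chr16:91546809-91547108 for Ifngr2. The Irf9 gene model starts at 55603571, and both Irf9 windows lie inside it, so the bases before that start were not searched.
Stat2: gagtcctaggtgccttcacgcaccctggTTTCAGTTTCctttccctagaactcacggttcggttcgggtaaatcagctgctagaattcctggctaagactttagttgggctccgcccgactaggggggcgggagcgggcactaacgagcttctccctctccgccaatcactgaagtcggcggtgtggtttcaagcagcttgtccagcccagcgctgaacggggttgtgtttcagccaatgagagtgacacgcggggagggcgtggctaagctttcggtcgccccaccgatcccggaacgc
Irf9: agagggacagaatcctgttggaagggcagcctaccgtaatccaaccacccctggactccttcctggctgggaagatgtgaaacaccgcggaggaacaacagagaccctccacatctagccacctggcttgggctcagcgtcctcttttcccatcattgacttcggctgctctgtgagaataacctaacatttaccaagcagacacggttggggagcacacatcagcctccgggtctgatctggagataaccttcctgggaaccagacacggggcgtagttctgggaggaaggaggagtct
Ifngr2: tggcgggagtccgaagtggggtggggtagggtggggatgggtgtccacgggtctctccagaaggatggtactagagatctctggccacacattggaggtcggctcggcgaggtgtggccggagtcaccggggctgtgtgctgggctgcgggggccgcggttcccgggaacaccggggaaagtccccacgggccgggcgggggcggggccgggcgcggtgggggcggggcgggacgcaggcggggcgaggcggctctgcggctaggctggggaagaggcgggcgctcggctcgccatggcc
Stat2 holds an ISRE core, read as TTTCAGTTTC on the plus strand and beginning 222 bases before the start (chr10:128270276-128270285). It is in 1 of the 10 windows found for the 9 members, and in 3.44% of all 32851 windows of the table. GAS letters are in 2 of the 10 windows, against 8.30% of all: Ifnar2 holds TTCCTGGAA from 214 bases before its start (chr16:91372569-91372577) and Ifnar1 holds TTCACGGAA from 5 bases before its start (chr16:91485210-91485218). Windows were found for 13 of 18 listed ISGF3 target genes, and of these 14 windows 6 hold an ISRE core (42.9%) and 3 GAS letters (21.4%). For 10 of 13 listed interferon gamma targets, 6 of 13 windows hold an ISRE core (46.2%) and 5 GAS letters (38.5%). These matches describe letters, not bound sites.

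**Figure D2:**
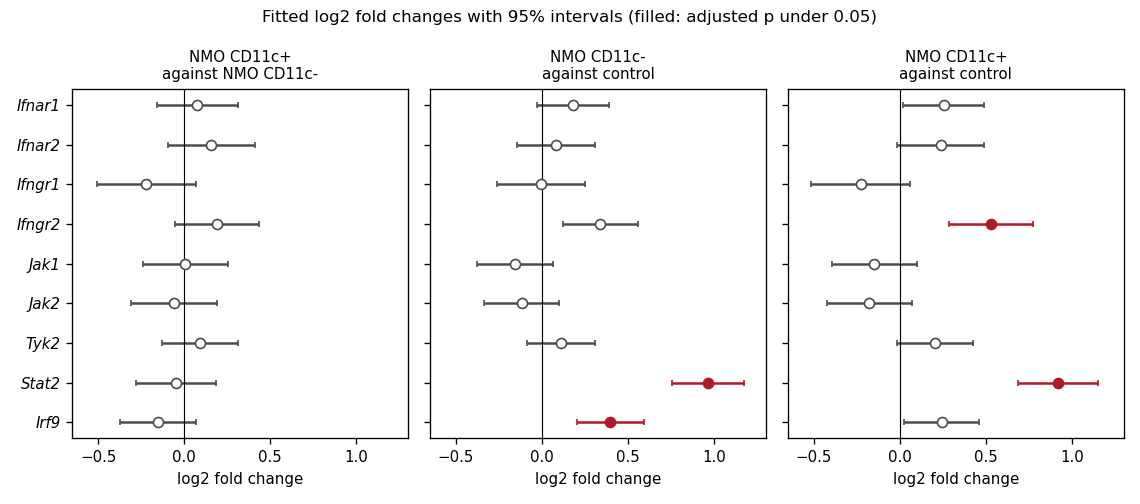
Fitted log2 fold change (horizontal axes) of each member in the 3 comparisons with its 95% interval; filled points passed an adjusted p of 0.05. Stat2 is at 0.92 in CD11c+ and 0.96 in CD11c- microglia against control, and all 9 intervals between the subsets include 0.

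Neither chain of the type I receptor was called. Ifnar1 (ENSMUSG00000022967, chromosome 16 from 91485238 to 91507441, plus strand), the chain that carries TYK2, was at 177 and 204 CPM in NMO CD11c+ libraries, 183, 176 and 183 CPM in NMO CD11c- libraries and 157, 154 and 169 CPM in control libraries. All NMO libraries were above all control libraries, by a log2 fold change of 0.25 in CD11c+ (95% interval 0.02 to 0.49, adjusted p = 0.143) and 0.18 in CD11c- microglia (95% interval -0.03 to 0.39, adjusted p = 0.345). Ifnar2 (ENSMUSG00000022971, chromosome 16 from 91372783 to 91405589, plus strand), the chain that binds type I interferon most tightly, was at 188 and 156 CPM in NMO CD11c+ libraries, 158, 152 and 152.5 CPM in NMO CD11c- libraries and 136, 156 and 145 CPM in control libraries. The lowest NMO CD11c+ library and the highest control library were level at 156 CPM. Its log2 fold change against control was 0.24 in CD11c+ (95% interval -0.01 to 0.49, adjusted p = 0.198) and 0.08 in CD11c- microglia (95% interval -0.15 to 0.31, adjusted p = 0.734). Without NMO CD11c+ replicate 2 it was called higher in CD11c+ microglia (adjusted p = 0.0229), which leaves the library that stands apart by GC content as the lone one of its group, assumed to vary like the others.

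Of the interferon gamma receptor chains, Ifngr2 rose in CD11c+ microglia, and Ifngr1 did not pass in any comparison. Ifngr1 (ENSMUSG00000020009, chromosome 10 from 19591949 to 19610229, plus strand), the ligand-binding chain, was at 550.1 and 635 CPM in NMO CD11c+ libraries, 736, 617 and 716 CPM in NMO CD11c- libraries and 661, 714 and 705 CPM in control libraries. Both NMO CD11c+ libraries were below the control libraries (log2 fold change -0.23, 95% interval -0.51 to 0.06, adjusted p = 0.27), and NMO CD11c- libraries overlapped them (-0.01, 95% interval -0.26 to 0.25, adjusted p = 0.981). Ifngr2 (ENSMUSG00000022965, chromosome 16 from 91547072 to 91565623, plus strand), the chain that brings in JAK2, was at 321 and 289 CPM in NMO CD11c+ libraries, 269.5, 259 and 273.5 CPM in NMO CD11c- libraries and 196, 217 and 222 CPM in control libraries. Its groups do not overlap, and NMO CD11c+ libraries were highest. In CD11c+ microglia the log2 fold change against control was 0.53 (SE 0.109, 95% interval 0.29 to 0.77, adjusted p = 0.0156). The call was lost without control replicate 1 or 2 (adjusted p = 0.0738 and 0.0571) and when the fit held only these groups (0.0588). In CD11c- microglia it was 0.34 (95% interval 0.12 to 0.56, adjusted p = 0.0926), which did not pass. With all libraries it passed with DESeq2 (adjusted p = 0.0199), as it did in edgeR with only CD11c- and control libraries (0.0221). Without NMO CD11c+ replicate 1 or 2 the log2 fold change in CD11c- microglia stayed at 0.34. Between the subsets it was 0.19 (95% interval -0.05 to 0.43, adjusted p = 0.406).

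The Ifngr2 to Ifngr1 ratio of counts within a library was 0.584 and 0.455 in NMO CD11c+, 0.366, 0.419 and 0.382 in NMO CD11c- and 0.296, 0.303 and 0.315 in control libraries. The groups are apart from each other, with a log2 difference from control of 0.76 in CD11c+ (exact two-sided permutation p = 0.2) and 0.35 in CD11c- microglia (exact p = 0.1), each 0.36 when adjusted over the 9 ratio comparisons. For the type I receptor the Ifnar2 to Ifnar1 ratio was 1.06 and 0.7655 in NMO CD11c+, 0.862, 0.863 and 0.834 in NMO CD11c- and 0.865, 1.02 and 0.862 in control libraries, and the groups overlap.

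**Figure D3:**
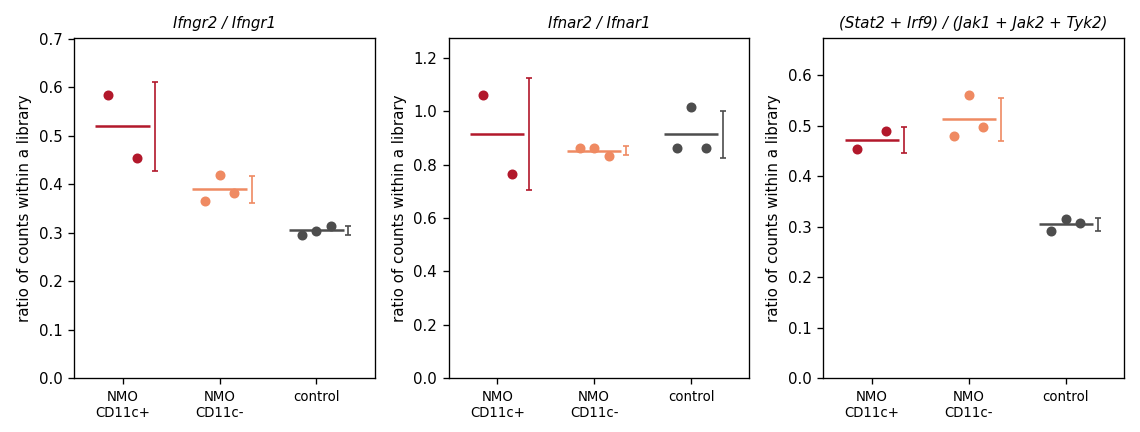
Ratios of counts within each library (vertical axes, from 0); points are libraries, lines are group means and bars 1 SD. The Ifngr2 to Ifngr1 ratio is 0.455 or more in NMO CD11c+ libraries and 0.315 or less in control libraries.

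Ifnar2, Ifnar1 and Ifngr2 lie within 192.8 kb on the plus strand of chromosome 16, and Il10rb, a receptor chain shared by interferon lambda and interleukin 10 family cytokines, lies among them (91406164 to 91425834). Il10rb averaged 165 ± 3.085 CPM in NMO CD11c+ (n = 2), 150.0 ± 5.21 CPM in NMO CD11c- (n = 3) and 138.5 ± 2.51 CPM in control libraries (n = 3). Its log2 fold change against control was 0.25 in CD11c+ (adjusted p = 0.106) and 0.115 in CD11c- microglia (adjusted p = 0.507). Of the 4 genes, Ifngr2 was the one called.

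None of the 3 kinase genes was called. Jak1 (ENSMUSG00000028530, chromosome 4 from 101152367 to 101265282, minus strand), the kinase used by both receptors, was at 342 and 325 CPM in NMO CD11c+ libraries, 359, 307 and 330.5 CPM in NMO CD11c- libraries and 372, 368 and 370.0 CPM in control libraries. Every NMO library was below every control library, by a log2 fold change of -0.15 in CD11c+ (95% interval -0.40 to 0.10, adjusted p = 0.406) and -0.155 in CD11c- microglia (95% interval -0.38 to 0.07, adjusted p = 0.442). Jak2 (ENSMUSG00000024789, chromosome 19 from 29251828 to 29313080, plus strand), bound to IFNGR2, was at 69.9 and 85.1 CPM in NMO CD11c+ libraries, 83.8, 80.85 and 77.7 CPM in NMO CD11c- libraries and 91.35, 88.4 and 83.3 CPM in control libraries. Its groups overlap, with log2 fold changes against control of -0.18 in CD11c+ (95% interval -0.43 to 0.07, adjusted p = 0.319) and -0.12 in CD11c- microglia (95% interval -0.34 to 0.10, adjusted p = 0.573). In CD11c+ microglia Jak2 was called lower without NMO CD11c+ replicate 2 (adjusted p = 0.0321), and with the GC content and length correction its log2 fold change was 0.0052 (adjusted p = 0.98). Tyk2 (ENSMUSG00000032175, chromosome 9 from 21104068 to 21131243, minus strand), bound to IFNAR1, was at 199 and 182 CPM in NMO CD11c+ libraries, 176, 182 and 177 CPM in NMO CD11c- libraries and 158, 173 and 164 CPM in control libraries. Every NMO library was above every control library, by a log2 fold change of 0.20 in CD11c+ (95% interval -0.02 to 0.43, adjusted p = 0.203) and 0.11 in CD11c- microglia (95% interval -0.09 to 0.31, adjusted p = 0.553). Over the 16 alternatives the Tyk2 value in CD11c+ microglia ran from 0.0237 to 0.2665, and the lowest came with the GC content and length correction. Jak2 has the lowest GC content of the members (44.3%) and Tyk2 the highest (57.0%), and the part of GC content in the gap between the NMO CD11c+ libraries was not tested.

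Counted by groups that do not overlap, 6 members lay above and 2 below all control libraries in NMO CD11c+ cells, where 22.2% and 21.5% of all genes were, and Jak2 was the member that overlapped. Ifnar2 is among the 6, by less than the rounding of its printed values. In NMO CD11c- libraries 5 members were higher and 1, Jak1, lower than in control libraries, where 17.6% and 16.1% of all genes were. Between the subsets Ifngr2 was higher and Irf9 lower in NMO CD11c+ libraries without overlap, where 13.8% and 14.2% of all genes were.

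Per kilobase of exon model, Ifngr1 had the highest level of the 9 genes in every group, and Stat2 the lowest in control libraries. Ifngr1 was at 208 ± 21.1 CPM per kilobase in NMO CD11c+ (n = 2), 242 ± 22.4 in NMO CD11c- (n = 3) and 244 ± 9.97 in control libraries (n = 3). The level of Stat2 was 26.3 ± 0.591 CPM per kilobase in NMO CD11c+, 27.2 ± 2.28 in NMO CD11c- and 13.9 ± 0.478 in control libraries. That of Jak2 was 15.4 ± 2.14, 16.1 ± 0.603 and 17.4 ± 0.809 in these groups, so Stat2 stood above Jak2 in both NMO subsets and below it in control libraries. The control order was Ifngr1, Ifngr2, Jak1, Ifnar2, Ifnar1, Tyk2, Irf9, Jak2 and Stat2, and no neighbours in it overlapped between libraries. The exon model joins all annotated exons of a gene (5386 bases for Irf9), and which transcripts were expressed was not tested. A gene whose expressed transcripts are shorter than its model is placed too low, so the order between genes is not firm. In NMO CD11c+ libraries Ifnar2 overlapped Jak1, and Tyk2 overlapped Stat2. In NMO CD11c- libraries Ifnar2 overlapped Jak1, and Ifnar1 overlapped Stat2, Stat2 overlapped Irf9 and Irf9 overlapped Tyk2. By mean CPM among all genes tested, Stat2 was at percentile 89.1 in NMO CD11c+, 89.8 in NMO CD11c- and 77.6 in control libraries.

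**Figure D4:**
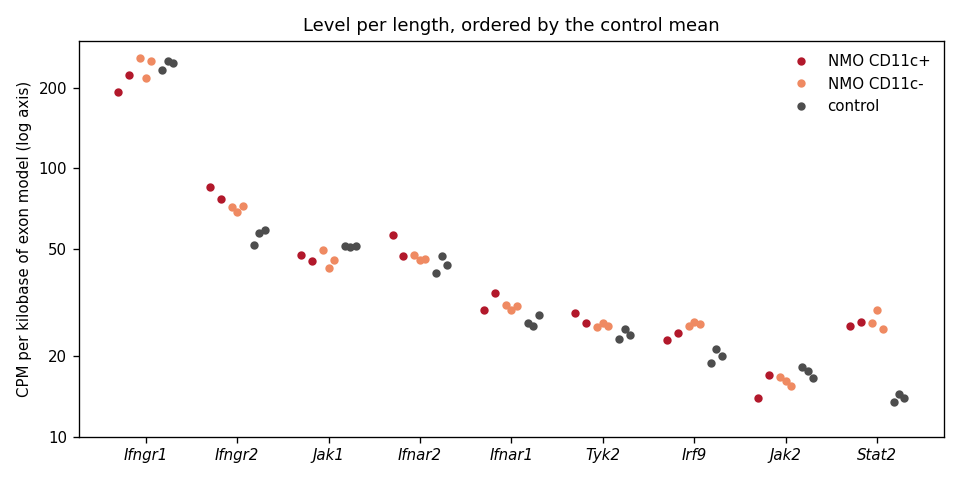
CPM per kilobase of exon model (log axis) of each member in every library, ordered by the control mean, with NMO CD11c+, NMO CD11c- and control from left to right within a gene. Stat2 is at 25.27 to 29.7 in NMO libraries and 13.4 to 14.4 in control libraries.

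The interferon genes themselves gave almost no counts. Of 18 listed, 15 had 0 counts in all 8 libraries, all together had 13 of 55933458 counts, and none had enough for a test. Ifnb1, the interferon beta gene, had 0 and 1 counts in NMO CD11c+, 3, 2 and 3 in NMO CD11c- and 0, 2 and 0 in control libraries. Ifng had 0 in every library. Ifnlr1, the specific chain of the interferon lambda receptor, had 1 and 0 counts in NMO CD11c+, 27, 70 and 12 in NMO CD11c- and 5, 5 and 18 in control libraries. It was not called by edgeR (adjusted p = 0.12 in CD11c- microglia against control, and 0.133 between the subsets, at a log2 fold change of -5.60). Of Ifnlr1 and Il10rb, DESeq2 called 1 higher in CD11c- microglia against control and 1 lower between the subsets. The highest Ifnlr1 library, NMO CD11c- replicate 2, also had the highest sum of neutrophil markers, and the part of those cells was not tested.

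Genes known as targets of ISGF3 rose in both NMO subsets. Of all genes tested, 6.85% and 3.0% were called higher in CD11c+ and CD11c- microglia against control, with median log2 fold changes of 0.01 and -0.004. Of 18 targets tested, 16 were called higher in CD11c+ and 16 in CD11c- microglia against control, with median log2 fold changes of 2.04 and 1.99. With each library left out, 16 to 18 were called in CD11c+ and 14 to 18 in CD11c- microglia. Mx2 and Herc6 did not pass in either. Oasl2, of the oligoadenylate synthetase family, averaged 75.8 ± 0.288 CPM in NMO CD11c+, 67.0 ± 8.24 CPM in NMO CD11c- and 12.5 ± 0.421 CPM in control libraries. Oas2, an antiviral synthetase of that family, averaged 93.7 ± 21.0 CPM, 71.0 ± 16.4 CPM and 10.4 ± 0.396 CPM. Ifit2 averaged 68.8 ± 21.3 CPM, 64.1 ± 5.57 CPM and 13.4 ± 1.78 CPM, and Ifit3 36.2 ± 1.64 CPM, 31.1 ± 6.57 CPM and 7.03 ± 0.879 CPM; both belong to an antiviral family. Between the subsets 0 of 18 were called by edgeR (1 at an unadjusted p under 0.05, 0 by DESeq2).

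Of 11 tested genes known to respond to interferon gamma, 6 were called higher in CD11c+ (6.85% of all genes tested) and 5 in CD11c- microglia (3.0%) against control. Against medians of 0.01 and -0.004 over all genes tested, their median log2 fold changes were 0.58 and 0.75. With each library left out, 5 to 7 were called in CD11c+ and 4 to 7 in CD11c- microglia. Cxcl10, a T cell chemoattractant, averaged 56.6 ± 31.8 CPM in NMO CD11c+, 51.2 ± 14.55 CPM in NMO CD11c- and 5.82 ± 1.66 CPM in control libraries. Cxcl9, a related chemoattractant, averaged 8.19 ± 4.36 CPM, 4.33 ± 1.47 CPM and 0.914 ± 0.166 CPM. Its call in CD11c- microglia (edgeR adjusted p = 0.02) was lost without NMO CD11c- replicate 1 at 0.0593, NMO CD11c- replicate 2 at 0.0834, control replicate 1 at 0.0756, control replicate 2 at 0.0971 or control replicate 3 at 0.0929. The GTPase genes Gbp2, Iigp1 and Irgm1 had log2 fold changes against control of 1.35, 2.09 and 0.58 in CD11c+ microglia, all called. In CD11c- microglia they had 1.0, 2.41 and 0.75, all called.

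Of 13 genes that restrain the chain, 2 were called higher and 1 lower in CD11c+ microglia, and 1 higher in CD11c- microglia, against control. Of all genes tested, 6.85% were called higher and 3.36% lower in CD11c+ microglia, and 3.0% higher in CD11c- microglia. The median log2 fold change of the 13 was 0.04 in CD11c+ and -0.02 in CD11c- microglia, and of all genes tested 0.01 and -0.004. Usp18, whose product binds IFNAR2 and blocks its signal, averaged 27.6 ± 11.8 CPM in NMO CD11c+, 24.9 ± 2.975 CPM in NMO CD11c- and 7.67 ± 1.80 CPM in control libraries. It was called in CD11c+ (log2 fold change 1.84, adjusted p = 0.00268) and CD11c- microglia (1.69, adjusted p = 0.00532), and in all 8 fits that left out a library. Socs2, of a family of feedback inhibitors, averaged 4.52 ± 0.330 CPM in NMO CD11c+, 3.475 ± 0.807 CPM in NMO CD11c- and 1.77 ± 0.291 CPM in control libraries. It did not pass in CD11c- microglia (log2 fold change 0.957, edgeR adjusted p = 0.109) but was called higher in CD11c+ microglia (adjusted p = 0.0303). That call was lost, by adjusted p, without NMO CD11c+ replicate 1 at 0.0705, control replicate 1 at 0.0756, control replicate 2 at 0.0815 or control replicate 3 at 0.104. Pias1, an inhibitor of STAT binding to DNA, averaged 67.2 ± 10.6 CPM in NMO CD11c+, 79.05 ± 6.19 CPM in NMO CD11c- and 92.2 ± 3.10 CPM in control libraries. It was called lower in CD11c+ (edgeR adjusted p = 0.0435) and not in CD11c- microglia (adjusted p = 0.296). Among the 8 fits the CD11c+ call held only without NMO CD11c+ replicate 2. That fit leaves the library that stands apart by GC content as the lone one of its group. With the GC content and length correction 0 of the 13 were called lower in CD11c+ microglia, where 500 of all 12002 genes were. Socs3, which inhibits JAK kinases, did not pass and ranged from 284.5 to 1262 CPM in NMO CD11c+, 285.5 to 618 CPM in NMO CD11c- and 843 to 1252 CPM in control libraries.

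Of 5 other JAK and STAT genes tested and reported, 1 was called higher in CD11c+ microglia against control, where 6.85% of all genes tested were. Jak3, the kinase of receptors with the common gamma chain, averaged 253 ± 25.7 CPM in NMO CD11c+, 208 ± 13.5 CPM in NMO CD11c- and 158 ± 11.0 CPM in control libraries. Its log2 fold change was 0.67 in CD11c+ (SE 0.115, adjusted p = 0.00617), called in all 8 fits that left out a library, and 0.40 in CD11c- microglia (adjusted p = 0.07).

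Among the genes closest in profile to Stat2 over the 8 libraries were Gm6548 and Per3, with a root mean square difference of 0.0715 and 0.0796 in centred log2 CPM, among 9801 genes with a mean of at least 5 CPM. Closest to Irf9 were Taf1, Zscan29 and Tmem164 (0.0497, 0.0576 and 0.0586), and closest to Ifngr2 were Kxd1, Tmem268 and Myo1f (0.0507, 0.0579 and 0.0596).

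**Figure D5:**
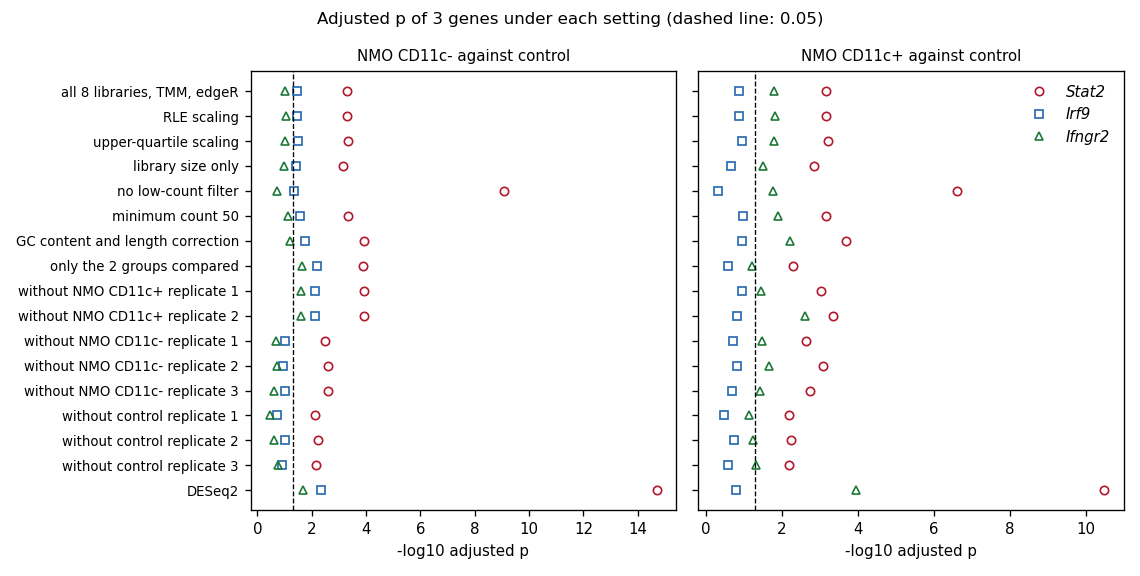
Adjusted p (horizontal axes, as -log10) of Stat2, Irf9 and Ifngr2 against control under each setting of the processing (rows), for CD11c- microglia on the left and CD11c+ microglia on the right, with a dashed line at 0.05. Stat2 is past the line in every row of both panels, and Irf9 in CD11c- and Ifngr2 in CD11c+ microglia fall short of it in some rows that leave out a library.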

How the data were processed

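Whole-number counts per gene were analysed as deposited, 1 file a library. The submitters' processing notes name STAR, HTSeq 0.5.4, edgeR 3.12.0 and the build GRCm38; strand setting and annotation release are not stated. GENCODE M21 gave symbols for 40340 of 41388 identifiers, with coordinates and exon lengths. Promoters are from RefSeq.

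In R 4.3.3, edgeR 4.0.16 filtered genes with filterByExpr (minimum count 10), scaled by TMM and fitted group means to the 8 libraries together (quasi-likelihood, 5 residual degrees of freedom). Adjusted p-values are Benjamini-Hochberg over 12002 genes. Group values are mean ± SD and intervals 95%. Ratios were compared by exact permutation. Replicates differed by more than counting noise (chi-square per degree of freedom 6.25 to 35.1). The fit was also run on simulated counts with no GC trend and no library that stands apart, and no value here rests on that run.

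Alternatives, 16 in all, were RLE, upper-quartile or library size scaling, no filter or a minimum count of 50, a GC content and length correction, only the groups compared, DESeq2 1.42.0 and each library left out. The text names all members, up to 4 called genes of a list by adjusted p in a comparison (all where 5 or fewer are called), and, of the closest 3 profiles to each called member, those reported here (2 for Stat2); Mx2, Herc6, Socs3, Il10rb, Ifnlr1, Ifnb1 and Ifng were added after their values were seen. Members, lists and alternatives were chosen with earlier results of these data known. Of the listed genes, 1 is not reported here.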

Additional observations from a re-analysis of the deposited data

How the results depend on the processing

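Stat2 was called higher under all 16 alternatives in both NMO subsets against control. With each library left out, 1 to 3 members were called higher and 0 to 1 lower in CD11c+ microglia, and 1 to 3 higher in CD11c- microglia. With only the groups compared in the fit, 1 member, Stat2, was called higher in CD11c+ microglia. Irf9 was called in CD11c- microglia under 10 of 16 alternatives (adjusted p = 0.00441 to 0.195), and Ifngr2 under 13 in CD11c+ (0.000113 to 0.0738) and 4 in CD11c- microglia (0.0199 to 0.341). Fits without a library hold fewer samples, and other causes of lost calls were not tested. Over all genes, DESeq2 called 107 higher and 161 lower between the subsets, and edgeR with no low-count filter 264 and 443, against 12 and 22. Without NMO CD11c+ replicate 2 edgeR called 1435 higher and 1581 lower between the subsets and 2019 higher and 2058 lower in CD11c+ microglia against control, where all libraries gave 822 higher and 403 lower. With each library left out, the counts over all genes ran from 3 to 1435 higher and 0 to 1581 lower between the subsets, 385 to 2019 and 102 to 2058 in CD11c+ and 123 to 788 and 18 to 405 in CD11c- microglia against control.

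Log2 fold changes that turned sign were all of genes not called in that comparison, and the cause was not tested. Between the subsets, Jak1 was -0.0522 with library size only and -0.0197 with no filter, and with a library left out -0.0453 to 0.0658. Jak2 was 0.14 and Tyk2 -0.0564 after GC content and length correction. With a library left out Jak2 ran from -0.2114 to 0.0749, Ifnar1 from -0.0345 to 0.1771 and Stat2 from -0.0929 to 0.0238. In CD11c- microglia against control Ifngr1 was 0.0004 with upper-quartile scaling, 0.0197 with library size only, 0.0044 at a minimum count of 50 and -0.0561 to 0.0676 with a library left out. In CD11c+ microglia against control Jak2 was 0.0052 after GC content and length correction. No paired analysis was possible because the replicate numbers are only names and no label ties libraries of the subsets to each other.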

Other observations

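Chains of other cytokine receptors that use JAK kinases moved in part. Of 14 tested, 4 were called higher and 1 lower in CD11c+ microglia against control, and 3 higher in CD11c- microglia. Of all genes tested 6.85% and 3.36% were called higher and lower in CD11c+ and 3.0% higher in CD11c- microglia. With each library left out, 2 to 6 were called higher and 0 to 1 lower in CD11c+, and 0 to 5 higher in CD11c- microglia. Il2rg, the common gamma chain that carries JAK3, averaged 19.4 ± 0.287 CPM in NMO CD11c+ (n = 2), 8.41 ± 2.24 CPM in NMO CD11c- (n = 3) and 3.16 ± 0.572 CPM in control libraries (n = 3). Its log2 fold change against control was 2.62 in CD11c+ (edgeR adjusted p = 0.000243, called in all 8 fits that left out a library) and 1.41 in CD11c- microglia (adjusted p = 0.0108, lost without control replicate 2 at 0.0636 or control replicate 3 at 0.0567). Between the subsets it was 1.21 (edgeR adjusted p = 0.0595). Of the 14 receptor genes edgeR called 0 between the subsets. DESeq2 called 2 of them higher and 1 lower, where it called 107 and 161 of all 12002 genes. Csf2ra, the binding chain of the GM-CSF receptor, averaged 493 ± 182 CPM in NMO CD11c+, 305 ± 46.4 CPM in NMO CD11c- and 179 ± 12.0 CPM in control libraries. It was called in CD11c+ microglia (edgeR adjusted p = 0.00209, called in all 8 fits) and not in CD11c- microglia (log2 fold change 0.77, adjusted p = 0.0523). Csf2rb, its signalling partner, averaged 219 ± 3.92 CPM in NMO CD11c+, 216 ± 8.98 CPM in NMO CD11c- and 158 ± 7.91 CPM in control libraries. It was called in CD11c+ microglia (edgeR adjusted p = 0.0177, lost without control replicate 1 at 0.0819 or control replicate 3 at 0.0737) and CD11c- microglia (adjusted p = 0.0232, held in 2 of 8 fits). Il15ra was called in CD11c- microglia (log2 fold change 0.73, adjusted p = 0.0232, held in 3 of 8) and Il4ra in CD11c+ microglia (0.48, adjusted p = 0.0451, held in 2 of 8). Neither passed in the other subset, Il15ra at 0.50 in CD11c+ (edgeR adjusted p = 0.0812) and Il4ra at 0.31 in CD11c- microglia (0.193). Lifr, the leukaemia inhibitory factor receptor, was called lower in CD11c+ microglia (81.6 ± 10.5 CPM against 135 ± 15.2 CPM in control libraries, adjusted p = 0.0172, lost without NMO CD11c+ replicate 1 at 0.0662, control replicate 1 at 0.056 or control replicate 3 at 0.0706).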
